A study of Mus musculus with 9 samples.

Results

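Expression was followed for 9 genes in 4 cell populations sorted from the hair follicles of mouse back skin. The genes were 7 markers of mural cells (Pdgfrb, Rgs5, Cspg4, Mcam, Des, Kcnj8 and Abcc9) and 2 olfactory receptor genes, Olfr558 and Olfr78. They were taken by symbol from 46517 gene rows, each symbol matched 1 row, and all 9 passed the filter on low counts that left 20491 genes. They were chosen by their deposited TPM and counts in these libraries, so their levels, their fold changes and the counts of them that a fit across all genes called are a description and no test of them.

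Mural cells are the contractile cells that wrap blood vessels: pericytes on capillaries and smooth muscle cells on larger vessels. They depend on platelet-derived growth factor made by the endothelium and received through PDGFRB, and many of them carry an ATP-sensitive potassium channel that couples metabolism to vessel tone. Olfactory receptors are G protein-coupled receptors of the nasal epithelium, and a few, Olfr78 among them, are also known from vascular smooth muscle and other tissues outside the nose. In skin, vessels with mural cells run through the dermis beside the follicle, and none of the 4 sorted populations is labelled as vascular.

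The populations were hair follicle stem cells (HFSC, 3 libraries), which reside in the bulge, the outer root sheath (ORS, 2 libraries), which lines the follicle below it, and the hair bulb, divided into its basal (basal HB) and suprabasal (suprabasal HB) layers, 2 libraries each. All came from mice of postnatal day 30 with follicles in anagen VI, late in the growth phase, and with the sex label "Mixed". The strain label of every library is Lhx2-GFP (CD1), a reporter of a hair follicle transcription factor, but the extraction protocol gives the mice as K14-H2BGFP, in which the keratin 14 promoter drives a nuclear reporter in basal epithelium, so the origin of the GFP is not settled. Sorting used GFP with antibodies to P-cadherin, Sca-1, CD34 and integrins α6 and β1; the gates, the number of mice per sample and whether replicates were separate animals are not given in the sources used here, so the spread between libraries may be technical.

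Total expected counts per library ran from 25098237 to 88596741, and the 3 HFSC libraries were the shallowest, so depth and population cannot be told apart in comparisons with HFSC. A list of 12 genes of follicle epithelium (Krt5, Krt14, Epcam, Trp63 and others) summed to between 12050 and 12880 TPM in HFSC, 5686 to 7192 in ORS, 4090 to 4143 in basal HB and 1721 to 1960 in suprabasal HB. Keratins weighed heavily in this sum, with Krt5, Krt15 and Krt17 at 3894, 2932 and 2281 TPM in HFSC. Epcam did not follow it, at 58.3 TPM in HFSC, 82.7 in ORS, 52.1 in basal HB and 83.7 in suprabasal HB. By edgeR at an adjusted p under 0.05, 10 of the 12 were lower in ORS than in HFSC and none higher. In basal HB 11 were lower than in HFSC and none higher, and 4 were lower than in ORS and 2 higher. In suprabasal HB 8 were lower than in basal HB and 2 higher. The share of all genes tested that was lower was 23.8%, 26.1%, 14.7% and 14.8% in these comparisons, in that order. Whether the sum measures epithelial content was not tested. TPM, a relative transcript abundance, is the authors' measure of level, which corrects for transcript length and library size. Of 8 basal bulb identity genes, which include Lef1, Msx2 and Bmp2, 5 rose and none fell in basal HB against ORS by edgeR. Among all genes tested, 15.8% rose and 14.7% fell there at the same adjusted p under 0.05. Of the same 8, 7 were already higher in ORS than in HFSC, as were 18.1% of all genes tested. In suprabasal HB 2 of the 8 were lower than in basal HB, as were 14.8% of all genes tested. Of 6 ORS identity genes, which include Krt5 and Krt75, 3 rose and 2 fell in basal HB against ORS. In ORS against HFSC, 5 of these 6 were lower and none was higher, where 23.8% and 18.1% of all genes tested were.

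Both olfactory receptors were far higher in basal HB than in the other 3 populations. Olfr558 (ENSMUSG00000070423, mm10 chromosome 7, 102702215 to 102712064, plus strand) had 16.85 and 17.68 TPM in basal HB. It had 0.42, 0.38 and 0.18 TPM in HFSC, 0.84 and 0.39 in ORS, and 0.11 and 0.01 in suprabasal HB. The lower basal HB library was 20.1 times the highest of the other 7, and of the other populations HFSC and ORS overlapped. The counts behind these levels were 1673 and 1897 reads in basal HB against 10 and 1 in suprabasal HB, so the suprabasal level is near the limit of counting.

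Olfr78 (ENSMUSG00000043366, chromosome 7, 102738511 to 102759471, minus strand) had 27.63 and 24.55 TPM in basal HB. It had 0.76, 0.59 and 1.13 TPM in HFSC, 1.38 and 0.42 in ORS, and 0.16 and 0.21 in suprabasal HB. Again basal HB stood apart, its lower library 17.8 times the highest of the others. Summed over the 2 libraries and scaled to total counts, basal HB exceeded suprabasal HB 251-fold for Olfr558 (exact 95% interval 140 to 503) and 122-fold for Olfr78 (88.5 to 172), where the intervals cover counting error only. Olfr78 was the more abundant receptor in every library, by 1.64-fold and 1.39-fold in the basal HB libraries on TPM. In the other 7 libraries, with few counts, this ratio ran from 1.08 to 21.0. In GENCODE the Olfr78 locus overlaps Olfr560 on the same strand, which was not analysed here, so reads of the shared stretch are counted under Olfr78.

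**Figure D1:**
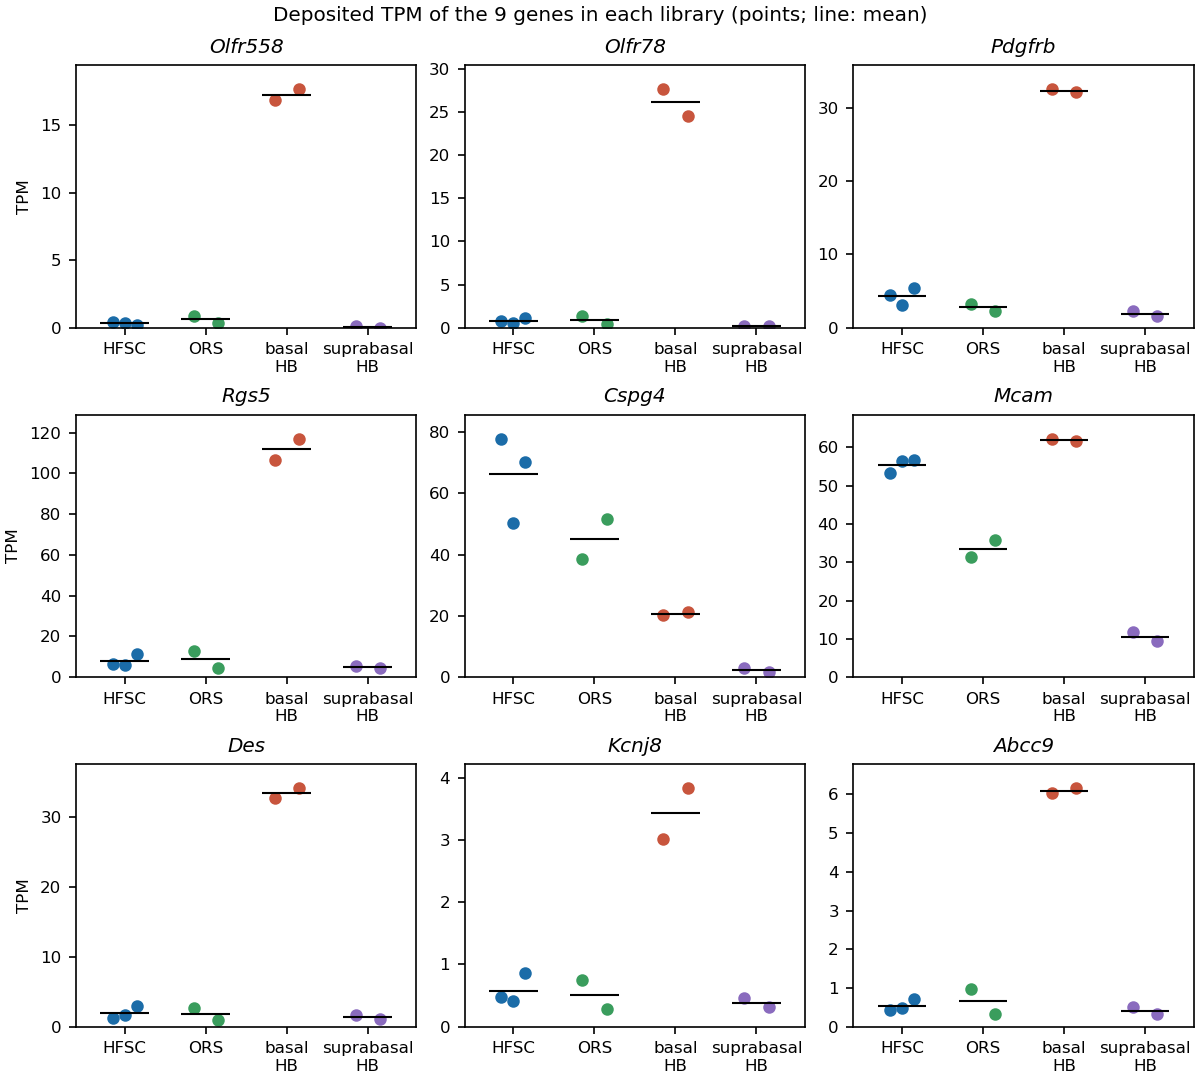
Deposited TPM of each of the 9 genes (1 panel each, axes from 0) in every library, by population; points are libraries and lines are means. On TPM, both basal HB libraries were over 4 times each of the other 7 for 6 genes. On normalised CPM, reads per unit of library size scaled between libraries, 1.69% of all genes tested met that margin, as did 6 members. Olfr558 had 16.85 and 17.68 TPM in basal HB against at most 0.84 elsewhere. The lower Kcnj8 library in basal HB was 3.51 times the highest of the others. Cspg4 was highest in HFSC, and Mcam was close between basal HB and HFSC.

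The rest of the olfactory receptor family was close to silent in these libraries. Of 1280 gene rows whose symbol starts with Olfr, 1184 had no count in any library and 6 passed the filter. In basal HB 4 reached a mean of 1 TPM or more, and Olfr78 and Olfr558 made up 81.0% of the family's summed TPM there. The others were Olfr613, at 5.17 TPM in basal HB and 3.61 to 4.82 in the other populations, and the pseudogene Olfr1372-ps1, at 1.73 TPM in basal HB and 1.53 to 2.45 elsewhere. Olfr56, the next by mean level, reached 0.35 TPM in basal HB. Neither Olfr613 nor Olfr1372-ps1 had the excess in basal HB that the 2 receptors showed.

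**Figure D2:**
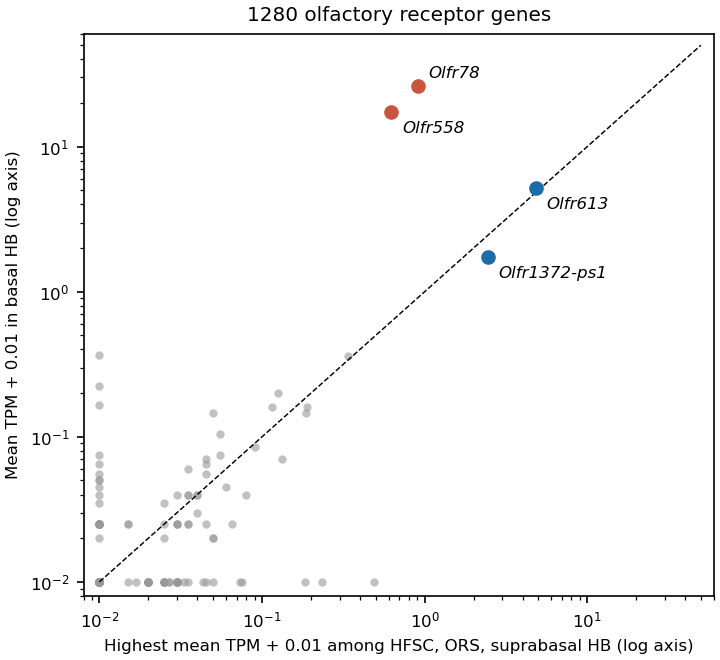
Mean TPM of 1280 olfactory receptor genes in basal HB (vertical) against the highest mean among HFSC, ORS and suprabasal HB (horizontal), both with 0.01 added and on log axes; the dashed line marks equality. Olfr78 and Olfr558 lie far above the line at 26.1 and 17.3 TPM in basal HB, while Olfr613 and Olfr1372-ps1 lie near it.

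The 2 receptor genes are close neighbours, 26446 bases apart on opposite strands and transcribed towards each other. Between them lie Olfr33, Olfr559 and a snoRNA gene, and in the 100 kb on either side of the pair lie more receptor genes. Of 13 other genes in this window with a row in the tables, 11 were olfactory receptors, and 5 of the 13 had no count in any library. Olfr559 and Olfr564 were listed at 0 TPM in HFSC, ORS and suprabasal HB and had 0.215 and 0.355 TPM in basal HB, from 14.8 and 23 counts in all. Trim68, a ubiquitin ligase gene in the same window, was measured everywhere, at 16.3 TPM in HFSC, 12.4 in ORS, 20.1 in basal HB and 10.5 in suprabasal HB.

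Genes of the odorant signal chain had mixed patterns, and 6 of 14 were near 0. The olfactory G protein gene Gnal had 3.12 TPM in basal HB against 1.72 in HFSC and 2.59 in ORS, and the cyclase gene Adcy3 had 11.4 against 5.21 and 10.1. Rtp2, which helps odorant receptors to the surface, was at 0 in all libraries, and Rtp1, Cnga2, Cnga4, Cngb1 and Omp had at most 0.19 TPM in any population and were not tested. Of the 8 tested, 3 were higher and 3 lower in basal HB against HFSC by edgeR, where 22.8% and 26.1% of all genes tested were. Against ORS 2 rose and 1 fell, where 15.8% and 14.7% of all genes tested did. The list median against ORS was 0.21 on the log2 scale, and -0.04 over all genes tested. Reep1 rose 12.0-fold to 37.8 ± 1.58 TPM (SD, n = 2), and Gng13, a G protein gamma subunit, rose 8.18-fold to 7.72 ± 3.03. The fall of Ric8b, a G protein chaperone, was small at -0.34 on the log2 scale and was lost under 13 of the 15 alternatives.

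Pdgfrb and Rgs5, the receptor and a regulator of G protein signalling that is a classical pericyte marker, were also highest in basal HB. Pdgfrb (ENSMUSG00000024620, chromosome 18) had 32.52 and 32.08 TPM in basal HB. It had 4.53, 3.10 and 5.45 TPM in HFSC, 3.25 and 2.30 in ORS, and 2.22 and 1.60 in suprabasal HB. The basal HB level was 5.89 times the highest of the other 7 libraries, and of the other 3 populations only HFSC and ORS overlapped. Rgs5 (ENSMUSG00000026678, chromosome 1, 169655501 to 169695813) reached the highest level of the 9 genes, 106.59 and 117.02 TPM in basal HB. It had 6.45, 6.24 and 11.30 TPM in HFSC, 13.11 and 4.4 in ORS, and 5.67 and 4.70 in suprabasal HB. ORS spanned the values of both HFSC and suprabasal HB, which did not overlap each other.

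Des encodes desmin, the intermediate filament of muscle and of many pericytes (ENSMUSG00000026208, chromosome 1, 75360329 to 75368579). It had 32.73 and 34.11 TPM in basal HB. It had 1.28, 1.65 and 2.93 TPM in HFSC, 2.67 and 1.01 in ORS, and 1.69 and 1.05 in suprabasal HB. Basal HB was again apart, by 11.2-fold over the highest other library, and the other 3 populations overlapped.

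Desmin is also a gene of skeletal muscle, so that tissue's markers are given beside it. Of 16 skeletal muscle genes, 7 rose in basal HB against ORS and none fell by edgeR, where 15.8% and 14.7% of all genes tested did. The number that rose went up without ORS replicate 1 and down without ORS replicate 2. Their summed level was 101 to 114 TPM in basal HB, 21.2 to 25.4 in HFSC, 22.7 to 32.8 in ORS and 29.3 to 36.9 in suprabasal HB. Those that rose included Myog, a factor of muscle differentiation (19.6-fold, to 40.1 ± 6.34 TPM), Myod1 (14.2-fold) and Pax7, a marker of muscle stem cells (13.2-fold, to 2.76 ± 0.32 TPM). Of genes of the mature fibre, the actin gene Acta1 rose to 16.9 TPM, whereas the kinase gene Ckm, at 4.12 TPM in basal HB, did not pass. No gene of this list was at 0 in all libraries, and the part of muscle cells in the Des level was not tested.

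The 2 subunits of the vascular ATP-sensitive potassium channel were the least abundant members in basal HB. Kcnj8 encodes its pore, Kir6.1 (ENSMUSG00000030247, chromosome 6, 142564837 to 142571614, minus strand), and had 3.02 and 3.83 TPM in basal HB. It had 0.47, 0.41 and 0.86 TPM in HFSC, 0.75 and 0.28 in ORS, and 0.46 and 0.31 in suprabasal HB. Abcc9 encodes the regulatory subunit, SUR2 (ENSMUSG00000030249, chromosome 6, 142587862 to 142702315, minus strand), and had 6.03 and 6.16 TPM in basal HB. It had 0.42, 0.48 and 0.72 TPM in HFSC, 0.98 and 0.34 in ORS, and 0.50 and 0.33 in suprabasal HB.

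Both subunits were highest in basal HB, without overlap, and did not separate the other 3 populations. The ratio of Abcc9 to Kcnj8 on TPM was 1.997 and 1.61 in basal HB and between 0.84 and 1.31 in the other 7 libraries. The genes lie 16247 bases apart on the same strand with no annotated gene between them. Their paralogs, which make the channel of pancreatic beta cells, were close to absent: Kcnj11 had 0.11 TPM in basal HB and was not tested, and Abcc8 rose in basal HB against ORS but only to 0.165 TPM. Of the genes around the pair, Ldhb, a lactate dehydrogenase, had 62 to 97 TPM in the 4 populations, and Cmas had 15.4 to 33.8, with no comparable excess in basal HB.

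The upstream sequence of the members with a RefSeq start site in the reference table shows what these genes share or lack next to that start. It covered 7 of the 9 genes, and windows of 250 bases were searched on both strands. The stretches before the GENCODE gene start are printed for the members that were highest in basal HB, on the gene's strand in GRCm38.p6, with a match to TGGGAA, the core bound by the NOTCH effector RBPJ, in capitals. The Olfr558 stretch is chr7:102702073-102702214, Rgs5 chr1:169655251-169655500, Des chr1:75360042-75360291, Kcnj8 chr6:142571615-142571864 and Abcc9 chr6:142702316-142702524.
Olfr558: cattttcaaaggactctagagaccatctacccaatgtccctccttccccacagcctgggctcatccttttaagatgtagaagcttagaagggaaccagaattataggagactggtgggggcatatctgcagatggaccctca
Rgs5: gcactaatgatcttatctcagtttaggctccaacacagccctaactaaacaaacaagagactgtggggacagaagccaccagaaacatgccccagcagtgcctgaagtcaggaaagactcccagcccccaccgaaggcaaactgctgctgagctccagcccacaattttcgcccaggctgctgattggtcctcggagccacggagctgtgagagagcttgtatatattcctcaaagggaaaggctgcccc
Des: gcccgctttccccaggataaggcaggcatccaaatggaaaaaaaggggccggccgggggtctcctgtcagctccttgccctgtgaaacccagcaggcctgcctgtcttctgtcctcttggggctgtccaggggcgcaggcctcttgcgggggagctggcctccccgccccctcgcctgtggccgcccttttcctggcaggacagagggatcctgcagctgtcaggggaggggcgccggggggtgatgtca
Kcnj8: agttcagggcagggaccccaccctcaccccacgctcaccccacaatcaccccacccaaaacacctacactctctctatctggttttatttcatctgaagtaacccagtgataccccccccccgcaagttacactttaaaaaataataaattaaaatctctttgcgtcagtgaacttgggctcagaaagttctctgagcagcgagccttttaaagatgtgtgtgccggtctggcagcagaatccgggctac
Abcc9: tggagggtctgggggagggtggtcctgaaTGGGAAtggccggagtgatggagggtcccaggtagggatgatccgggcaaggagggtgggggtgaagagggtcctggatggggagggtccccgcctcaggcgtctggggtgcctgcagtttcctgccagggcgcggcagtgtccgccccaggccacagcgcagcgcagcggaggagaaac
TGGGAA was found in the windows of Olfr558 and Abcc9, and in 21.6% of all 32851 windows of the table. The Olfr558 match starts 64 bases before the RefSeq start site, past the stretch printed and so inside the GENCODE gene. None of the 7 windows held a CArG box, the site of serum response factor, which 1.47% of all windows held, or TATAAA, which 12.4% held. The EBF core CCCNNGGG was found in the window of Mcam alone and in 11.8% of all windows. The Mcam match starts 107 bases before the RefSeq start site and also lies inside the GENCODE gene. The windows ranged from 49.2% GC in Kcnj8 to 73.6% with 25 CpG in Mcam, against a median of 52.4% and 6 over all windows, and that of Olfr558 held no CpG.

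Cspg4 and Mcam, 2 surface proteins used to sort mural cells, did not share the pattern of the others. Cspg4 encodes the proteoglycan NG2 (ENSMUSG00000032911, chromosome 9, 56865033 to 56899870) and was highest in HFSC, at 77.78, 50.26 and 70.23 TPM. It had 38.61 and 51.47 TPM in ORS and 20.18 and 21.32 in basal HB, with 3.15 and 1.80 left in suprabasal HB. The order ran from stem cells down to the suprabasal bulb, HFSC and ORS overlapped on TPM, and basal HB stood below both.

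Mcam encodes the adhesion protein CD146 (ENSMUSG00000032135, chromosome 9, 44134469 to 44142727). It had 53.39, 56.52 and 56.58 TPM in HFSC, 31.48 and 35.70 in ORS, and 62.29 and 61.76 in basal HB; suprabasal HB was lowest at 11.84 and 9.44. On TPM basal HB was slightly above HFSC, whereas on normalised CPM, reads per unit of library size scaled between libraries, it was below at 90.9 ± 6.11 (SD, n = 2) against 107 ± 9.00 (n = 3). The sign of that difference therefore depended on the scale, at -0.24 on the log2 scale from counts and 0.16 from TPM. An antisense gene, Gm10687, overlaps Mcam and had 2.67 TPM in basal HB and 0.71 to 1.41 elsewhere; the counting strand is not given in the sources used here.

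Set side by side, the fitted log2 differences of basal HB over ORS were 4.77 for Olfr558 (SE 0.53), 4.75 for Olfr78 (0.49), 4.04 for Des (0.48), 3.66 for Rgs5 (0.48), 3.49 for Pdgfrb (0.25), 3.13 for Abcc9 (0.47) and 2.69 for Kcnj8 (0.51). Mcam had 0.81 (0.11) and Cspg4 -1.17 (0.23), whose call was lost without basal HB replicate 1. Without ORS replicate 1 the differences were 5.79 for Olfr78, 5.44 for Olfr558, 4.64 for Rgs5, 4.08 for Abcc9 and 3.58 for Kcnj8. Without ORS replicate 2 they were 4.12, 4.29, 3.07, 2.55 and 2.12, so the order of the receptors depended on the ORS library. Des was at 4.92 and 3.49. As a description only, since the choice used these libraries, the edgeR fit across all genes at an adjusted p under 0.05 placed 8 of the 9 members higher in basal HB than in ORS and 1 lower, where 30.5% of all genes tested were called, 15.8% higher and 14.7% lower. Against HFSC 7 were higher and 1 lower, where 48.9% of genes were called, 22.8% higher and 26.1% lower, and Mcam was not called. In suprabasal HB against basal HB all 9 were lower, where 27.9% of genes were called and 14.8% were lower. Nothing is read from these counts, and the 3 comparisons share the basal HB libraries.

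**Figure D3:**
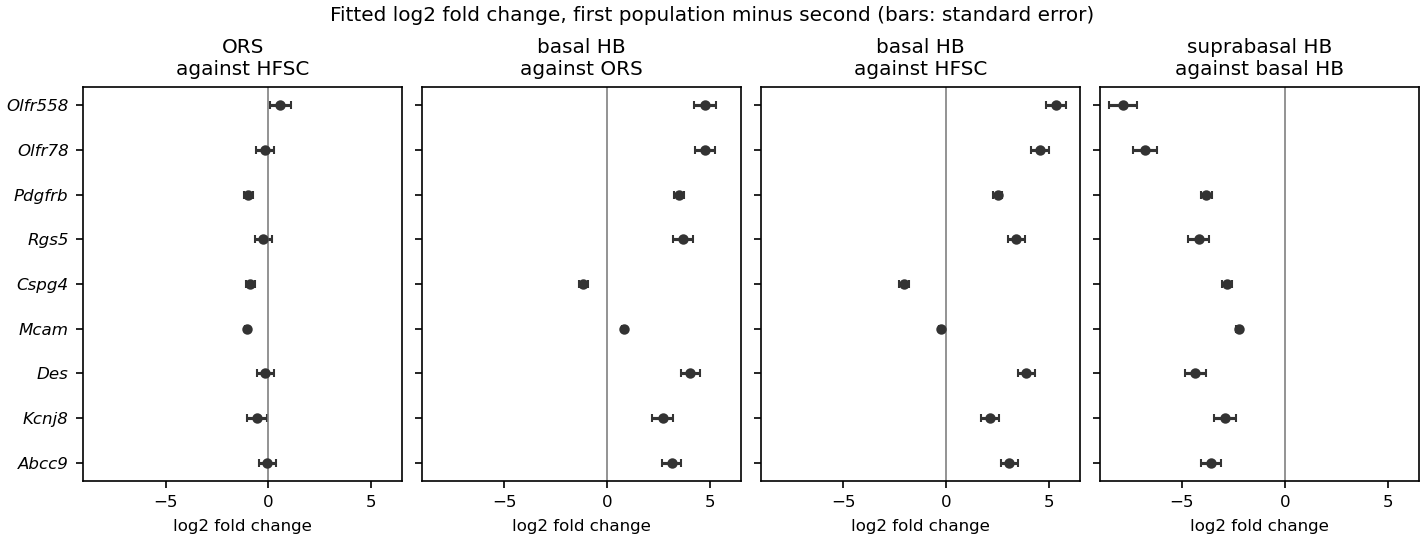
Fitted log2 fold change (horizontal axis) of the 9 genes in 4 comparisons, first population minus second, with standard errors as bars. In basal HB against ORS 7 genes lie at 2.69 or above, Mcam at 0.81 and Cspg4 at -1.17, and in suprabasal HB against basal HB all 9 lie below 0.

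Between ORS and HFSC, where 41.9% of all genes tested were called, none of the 9 was higher in ORS, where 18.1% of genes were. 3 of them were lower, where 23.8% of genes were: Pdgfrb by 0.99 on the log2 scale, Cspg4 by 0.89 and Mcam by 1.05. The number lower was 5 without ORS replicate 1, 2 without ORS replicate 2 and 1 on TPM, and the share of all calls that were higher was 68.8% on log2(TPM + 1) against 43.2%. The direction of 6 members (Olfr558, Olfr78, Rgs5, Des, Kcnj8 and Abcc9) turned with the ORS library kept, though for Kcnj8 only to 0.01; Rgs5 was at -1.23 without replicate 1 and 0.34 without replicate 2.

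The ORS libraries differed from each other in the 7 members whose normalised CPM in both basal HB libraries lay above the other 7 libraries. Such an order in basal HB held for 11.8% of all genes tested. On normalised CPM, ORS replicate 1 exceeded replicate 2 by 3.18-fold for Olfr78, 2.97-fold for Rgs5, 2.90-fold for Abcc9, 2.77-fold for Kcnj8, 2.70-fold for Des, 2.23-fold for Olfr558 and 1.44-fold for Pdgfrb. Cspg4 and Mcam ran the other way, with replicate 2 above replicate 1 by 1.304-fold and 1.11-fold. Of all genes tested, 17.97% were higher by at least 1.3-fold in replicate 1, with a median difference over all genes of -0.002 on the log2 scale. In HFSC, replicate 3 held the highest value of 6 members and of 30.3% of all genes tested, while Olfr558 was lowest there.

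Markers of several other cell types also stood higher in ORS replicate 1. At least 1.3-fold more in replicate 1 was measured for 21 of 26 other mural genes, 12 of 13 melanocyte genes, 20 of 22 dermal genes, 8 of 10 Schwann cell genes and 10 of 16 endothelial genes. The same held for 8 of 8 immune, 10 of 15 smooth muscle and 9 of 16 skeletal muscle genes, but for none of 5 red blood cell genes. Epithelial lists were divided: of the 12 follicle epithelium genes none was higher and 5 were lower by that margin, but 6 of 8 basal bulb and 6 of 9 suprabasal bulb identity genes were higher. Among 8 HFSC identity genes 1 was higher and 3 were lower, and among 6 ORS identity genes 1 was higher and 1 lower. The part of these cell types in the ORS values of the members was not tested.

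Genes were also ranked by how close their profile was to each member, as the root mean square difference of centred log2 CPM over the 9 libraries, among 16604 genes with a mean of at least 0.5 CPM. The nearest to Rgs5 were Des (0.214), Abcc9 (0.243) and Atp2a3, a calcium pump (0.257). Nearest to Des were Gucy1a3, a subunit of the nitric oxide receptor (0.176), Trpc6, a cation channel (0.205), and Rgs5. Abcc9 was nearest to Rgs5, Ccdc3 and Add2. Pdgfrb was nearest to Apol6, Kcnn3 and Mustn1 (0.272 to 0.297), and Kcnj8 to Mest, Pcdh12 and Gypc (0.243 to 0.297).

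The receptors had looser neighbours, by a measure that grows with the size of a change and with counting noise. Olfr558 had only 10 and 1 counts in the suprabasal HB libraries, so its distances are in part noise. Olfr78 was nearest to Rcan2 (0.403), Pcp4l1 and Rgs4, a relative of Rgs5, and Olfr558 to Susd5 (0.782), Pln, the phospholamban of muscle (0.868), and Olfr78 (0.892). The profiles of Cspg4 and Mcam lay near other genes altogether. Cspg4 was nearest to Msrb3 (0.221), Tcf7l1, a transcription factor of the bulge (0.226), and Col12a1, a fibril-associated collagen (0.227), all highest in HFSC. Mcam was nearest to Xdh (0.161), Cnp and Ehd2.

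The other mural genes, a list of 26 rows that holds none of the 9, were mostly higher in basal HB too. Like the other lists, it was chosen with earlier results of these data known, so its counts are a description and no test. In basal HB against ORS 24 of 26 rose and 1 fell by edgeR, where 15.8% and 14.7% of all genes tested did. The list median was 3.05 on the log2 scale against -0.04 over all genes. Rgs4 rose 25.6-fold, from 2.39 ± 0.40 to 50.3 ± 1.41 TPM (SD, n = 2 each), and stood at 2.03 TPM in HFSC and 0.85 in suprabasal HB. Gucy1a3 rose 19.7-fold to 23.2 TPM and Foxs1, a forkhead factor of pericytes, 19.3-fold to 9.18 TPM. Notch3, the NOTCH receptor of mural cells, had 62.4 TPM in basal HB against 8.75 in ORS. The gene that fell was Steap4, a metal reductase, from 107 ± 33.4 to 29.8 ± 4.46 TPM, and Nes, at 6.66 against 7.33 TPM, did not pass.

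Against HFSC 21 of these 26 were higher and 2 lower in basal HB, where 22.8% and 26.1% of all genes tested were. In suprabasal HB against basal HB 19 were lower and 1 higher, where 14.8% and 13.1% of all genes tested were. The gene that was higher was S1pr3, a sphingosine phosphate receptor, which had 36.6 TPM in suprabasal HB and 16.4 in basal HB. Tbx2, Heyl and Ano1, at 14.9 to 16.8 TPM in suprabasal HB and 13.7 to 23.1 in basal HB, did not pass, and Ednra fell from 65.4 to 25.2 TPM. In ORS against HFSC none rose and 6 fell, where 18.1% and 23.8% of all genes tested did. Without ORS replicate 2 the number that rose was 4, and the number that fell was 12 without ORS replicate 1 and 3 on TPM with 0.1 added. The summed level of the list was 488 to 500 TPM in basal HB, 214 to 257 in HFSC, 157 to 174 in ORS and 137 to 182 in suprabasal HB, and no gene of it was at 0 in all libraries.

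Contractile genes of smooth muscle divided by level. Of 15, 12 rose and 1 fell (Smtn) in basal HB against ORS by edgeR, where 15.8% and 14.7% of all genes tested did. The list's median log2 change was 3.08. Myh11, the smooth muscle myosin, rose 26.8-fold to 112 ± 5.70 TPM, Pln also rose 26.8-fold, to 15.4 TPM, Myocd, the coactivator of smooth muscle genes, rose 22.9-fold to 3.38 TPM and Lmod1 rose 16.3-fold. Acta2 and Tagln were abundant in HFSC, at 933 and 778 TPM against 589 and 308 in basal HB. The summed level of the list was highest in HFSC, at 2388 to 3422 TPM. It was 1079 to 1110 TPM in ORS, 1636 to 1740 in basal HB and 71.4 to 120 in suprabasal HB. Among all genes tested, 14.8% fell in suprabasal HB against basal HB, and 22.8% were higher and 26.1% lower in basal HB against HFSC. All 15 fell in suprabasal HB against basal HB, and against HFSC 10 were higher and 4 lower in basal HB; without basal HB replicate 1 the number lower was 2.

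Ligands and partners of the members had several patterns. Pdgfb, the ligand that recruits mural cells, had 6.24 TPM in HFSC, 6.41 in ORS, 4.42 in basal HB and 1.18 in suprabasal HB, and Pdgfa had 80.1, 36.4, 39.95 and 22.6. Angpt1, the angiopoietin of mural cells, rose 10.6-fold in basal HB against ORS to 3.12 TPM, Angpt2 rose 9.37-fold to 10.3 TPM, and the receptor gene Tek fell from 8.55 to 4.12 TPM. Pdgfra, a receptor of dermal fibroblasts, rose 5.33-fold to 6.87 TPM, below the 32.3 TPM of Pdgfrb. In this list of 10 tested genes 5 rose and 2 fell in basal HB against ORS, where 15.8% and 14.7% of all genes tested did. Angpt1 is also in the list of mural genes.

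Endothelial markers, which mark the other cell type of the vessel wall, mostly did not pass between basal HB and ORS. Of 16, 3 rose and 2 fell in basal HB against ORS by edgeR, where 15.8% and 14.7% of all genes tested did, so the list was near that share. Their median log2 change was 0.34, against -0.04 over all genes tested. Their sum was 79.1 to 105 TPM in basal HB, 55.2 to 87.5 in HFSC, 59.6 to 68.1 in ORS and 69.6 to 78.3 in suprabasal HB. Pecam1 had 7.25 TPM in basal HB against 5.91 in ORS and Cdh5 2.70 against 2.21, neither of which passed. Esam, an adhesion molecule, rose 6.09-fold to 18.7 ± 1.57 TPM, Flt1 3.44-fold and Eng 2.53-fold. No endothelial gene of the list was at 0 in all libraries.

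Markers of other cells in and around the follicle were also higher in basal HB. Of 22 genes of dermal fibroblasts, papilla and sheath, 12 rose and 1 fell in basal HB against ORS by edgeR. Among all genes tested, 15.8% rose and 14.7% fell. Hhip, a hedgehog inhibitor, rose 27.5-fold to 25.5 TPM, and Corin, a protease of the papilla, rose 17.6-fold to 33.8 TPM. The sum of that list overlapped between populations, at 972 to 1278 TPM in basal HB and 748 to 1744 in suprabasal HB. Of 10 Schwann cell and nerve genes 8 rose and 1 fell, and their sum was 299 to 342 TPM in basal HB and 62.9 to 89.0 in ORS.

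Of 13 melanocyte genes 12 rose and none fell in basal HB against ORS, where 15.8% and 14.7% of all genes tested did. The number that rose was smaller without basal HB replicate 1. Their sum was 922 to 1477 TPM in basal HB and 12380 to 13710 in suprabasal HB. Of 8 immune genes tested 1 rose (Cd74) and of 5 red blood cell genes none, with none falling in either. In bulk samples more cells of a type and more RNA per cell cannot be told apart, and the part of non-epithelial cells in the levels of the members was not tested.

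**Figure D4:**
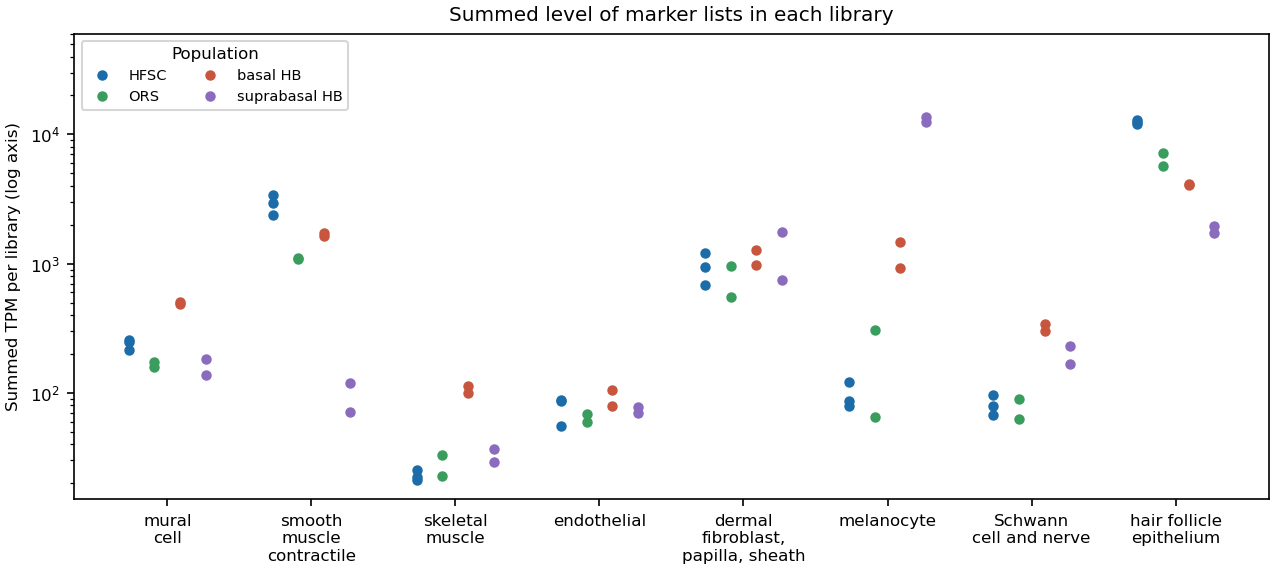
Summed TPM of 8 marker lists in each library (points, log axis), coloured by population. The mural list was highest in both basal HB libraries at 488 and 500 TPM, and the smooth muscle list was highest in HFSC at 2388 to 3422 TPM. The endothelial list lay between 55.2 and 105 TPM in all libraries, and the melanocyte list was highest in suprabasal HB at 12380 and 13710 TPM.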

How the data were processed

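Polyadenylated RNA was prepared with an Illumina TruSeq kit and sequenced as read pairs, per the labels' protocols. The authors ran Bowtie2 2.2.9 and RSEM 1.2.30 against mm10, per the submitters' processing notes; parameters, annotation and counting strand are not given in the sources used here. The deposited per-sample tables hold expected counts (RSEM's estimate of reads per gene), the authors' TPM, and the effective length in bases; 9 FPKM columns and a deposited TPM table of the whole series were not used, the latter because 3 of its columns carry no sample's label. The 92 spike-in rows had no counts.

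Expected counts were rounded and fitted in edgeR 4.0.16 (R 4.3.3): filterByExpr, TMM factors of 0.9 to 1.127, all 9 libraries in 1 quasi-likelihood model with a mean per population (residual df of 5), and 2-sided F-tests with Benjamini-Hochberg adjustment over 20491 genes at 0.05. The procedure was tested on simulated data. Fold changes named as rises are fitted values; levels are deposited TPM, whose depth of 3 counts equals 0.034 to 0.12 CPM. Positions are from GENCODE M21 and upstream sequences from RefSeq (GRCm38.p6).

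The members and lists were chosen with earlier results of these data known. Every member is named, with the 3 nearest genes of each, up to 4 genes per list with the largest called change in basal HB against ORS, and the 5 most abundant olfactory receptors; other named list genes were picked after their values were seen, and some that the rule names are not reported here. Lists share genes: Angpt1 is among the mural genes and the partners, Pdgfra is among the dermal genes and the partners, Tek and Tie1 among the endothelial genes and the partners, and Sox10 among the melanocyte and Schwann cell genes. Alternatives were DESeq2 1.42.0 size factors and Wald test, no filter, a replicate block, limma 3.58.1 on log2(TPM + 1) and log2(TPM + 0.1), and leaving out each library.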

Additional observations from a re-analysis of the deposited data

How the results depend on the processing

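The log2 differences of the 9 genes gave 540 values under 15 alternatives. Set against the spread between libraries, 516 moved by less and 24 by more, and none that had been called changed sign. Leaving out 1 library can hardly move a mean by more than that spread, so the 516 are no measure of stability. In ORS against HFSC, Rgs5 went from -0.25 to -1.23 or 0.34 and counted as unmoved. Abcc9, at -0.06, changed sign there in 7 of 15 settings and also counted as unmoved. On log2(TPM + 1), which shrinks low genes, Olfr558 in suprabasal HB against basal HB was at -4.11 in place of -7.86, and without suprabasal HB replicate 1 it was at -10.05. The call of Cspg4 as lower in basal HB against ORS was lost without basal HB replicate 1.

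Counts of genes called moved by more than 1.5 times on TPM, where the median log2 change shifted by up to 0.34. In ORS against HFSC, 5928 genes were higher and 2690 lower with 1 added and 5714 and 2519 with 0.1 added, in place of 3703 and 4873, so that 68.8% and 69.4% of calls were higher in place of 43.2%. In basal HB against HFSC they were 7760 and 2958 with 1 added and 7501 and 2793 with 0.1 added, in place of 4681 and 5345. In suprabasal HB against basal HB 1005 and 779 were higher in place of 2679, 19.5% and 17.4% of calls in place of 46.8%, and in basal HB against ORS 1667 were lower with 0.1 added in place of 3004, with 63.1% of calls higher in place of 51.9%.

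Leaving out 1 library at a time gave 2812 to 4413 higher and 3583 to 4800 lower in ORS against HFSC. It gave 2095 to 3557 and 1330 to 2976 in basal HB against ORS, 3083 to 5821 and 3339 to 5311 in basal HB against HFSC, and 856 to 2687 and 1795 to 3379 in suprabasal HB against basal HB. The lowest counts in the last 3 came without a basal HB library; in basal HB against ORS 1940 were lower without ORS replicate 2, and in suprabasal HB against basal HB 1375 were higher without suprabasal HB replicate 2. A fit left with 1 library in a population assumes that it varies like the others.

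Same-numbered libraries deviated together weakly (correlations of -0.105 to 0.121), and the labels do not say that numbers mark a shared animal or day. With the replicate block 3121 genes were higher and 4265 lower in ORS against HFSC. They were 3137 and 2738 in basal HB against ORS, 4136 and 4828 in basal HB against HFSC, and 2385 and 2829 in suprabasal HB against basal HB, and the numbers of members called did not change.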
